A study of Mus musculus with 18 samples.

Results

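Secreted antagonists of bone morphogenetic proteins (BMPs), with the decoy receptor gene *Bambi*, were followed at the RNA level in mouse tissue collected as retinal pigment epithelium (RPE). The RPE is the pigmented sheet between photoreceptors and choroid. The members were *Sost*, *Sostdc1*, *Nog*, *Grem1*, *Chrd*, *Chrdl1*, *Fst*, *Bambi*, *Bmper* and *Twsg1*, taken by symbol from the deposited count table, where they were 10 of 52636 listed genes. *Bambi* encodes a membrane protein, so 9 of the 10 are secreted. The study asked how SREBP2, the transcription factor of cholesterol synthesis genes, and the endocytic receptor LRP2 act in the RPE during eye growth. C57BL/6 mice received AAV8 vectors under the retina of both eyes at postnatal day 0, at a dose of 1e+09 vector genomes per eye, and their RPE was collected at day 14. Each library was made from the 2 eyes of 1 mouse, and each of 6 groups had 3 libraries.

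The groups were uninjected mice of the same strain and age, mice given a vector for GFP, mice given a vector for nSREBP2 (the nuclear, constitutively active form of SREBP2), mice given a control hairpin against LacZ (ctrl sh), and mice given either of a pair of hairpins against *Lrp2* (*Lrp2* sh1 and *Lrp2* sh2). All vectors used the *Best1* promoter, which is active in RPE, and the hairpin vectors, ctrl sh included, also expressed mCherry. A change in bulk tissue can reflect fewer cells of a type or less RNA per cell, and these cannot be told apart here.

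BMPs are secreted dimers that bind type I and type II receptor kinases and act through phosphorylated SMAD proteins, which switch on genes such as *Id1* and *Smad6*. The antagonists work outside the cell, where most hold the ligand away from its receptor. Noggin, gremlin and chordin bind BMPs directly, follistatin binds activins and some BMPs, and sclerostin (the product of *Sost*) and its relative SOSTDC1 also bind the Wnt co-receptors LRP5 and LRP6. BAMBI resembles a type I receptor without a kinase and sits in receptor complexes as a decoy. Several antagonist genes are themselves induced by BMP signalling, and in the eye this balance is known for its part in patterning and growth.

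Depth was 8921885 to 13696934 counts per library. *Lrp2*, the target of the hairpins, was at 29.7 to 43.6 CPM (reads of the gene per 1e+06 counted, scaled by TMM factors) in the 6 *Lrp2* hairpin libraries and at 87.7 to 166 CPM in ctrl sh, and *Srebf2*, whose deposited count cannot separate vector from endogenous transcript, was at 208 to 233 CPM in nSREBP2 and at 83.5 to 113 CPM in GFP. All 9 RPE marker genes were detected in every group, but their summed level ran from 195 CPM in a GFP library to 7763 CPM in an uninjected one. In the same libraries 6 fibroblast markers summed to between 18501 and 85271 CPM. The samples thus also held RNA of other cell types, and which cells the members' reads came from was not tested. Where RPE names a sample below, it means this mixed tissue. Judged by *Xist* and Y-linked transcripts, the nSREBP2 mice were all male and the GFP mice all female, so sex and nSREBP2 cannot be told apart within that pair. The other males were 1 uninjected and 2 *Lrp2* sh2 mice.

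All 10 members had reads in every group, and all passed the filter on low counts in the test across the 6 groups. In that test 8 of the 10 differed between groups at an edgeR adjusted *P* under 0.05, against 48.7% of all 19744 genes tested. The 8 were *Sostdc1* (adjusted *P*=5.75e-08), *Sost* (7.66e-07), *Nog* (6.85e-05), *Chrdl1*, *Twsg1*, *Chrd*, *Bambi* and *Fst*, and the other two were *Grem1* (adjusted *P*=0.0930) and *Bmper* (0.609).

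All 10 are protein-coding genes. On GRCm38 *Sost* lies at chr11:101962458-101967015, *Sostdc1* at chr12:36314139-36318452, *Nog*, which has a single exon, at chr11:89300638-89302332, *Chrd* at chr16:20733127-20742384 and *Chrdl1* at chrX:143285674-143394262.

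Per kilobase of exon, the scale on which genes can be set against each other, *Sostdc1* and *Twsg1* had the highest levels of the 10 in every group. In uninjected RPE the mean was 35.4 ± 8.14 CPM per kb for *Sostdc1* and 28.7 ± 0.261 for *Twsg1* (SD, n=3). *Nog* (9.88 ± 4.62) and *Bambi* (9.04 ± 0.706) followed, then *Sost* (4.10 ± 1.57), *Chrdl1* (3.27 ± 0.516), *Fst* (3.10 ± 0.970) and *Chrd* (2.19 ± 0.378), and *Bmper* (1.27 ± 0.517) and *Grem1* (0.387 ± 0.300) were lowest. Taking 1 SD on either side of each mean, *Sostdc1* could not be ordered against *Twsg1*, *Nog* against *Bambi* or *Sost*, *Sost* against *Chrdl1*, *Fst* or *Chrd*, nor *Fst* against *Chrdl1* or *Chrd*. *Sost* stood 5th in uninjected RPE and last of the 10 in nSREBP2, *Lrp2* sh1 and *Lrp2* sh2. *Chrd* moved the other way, from 8th in uninjected to 4th in nSREBP2.

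**Figure D1:**
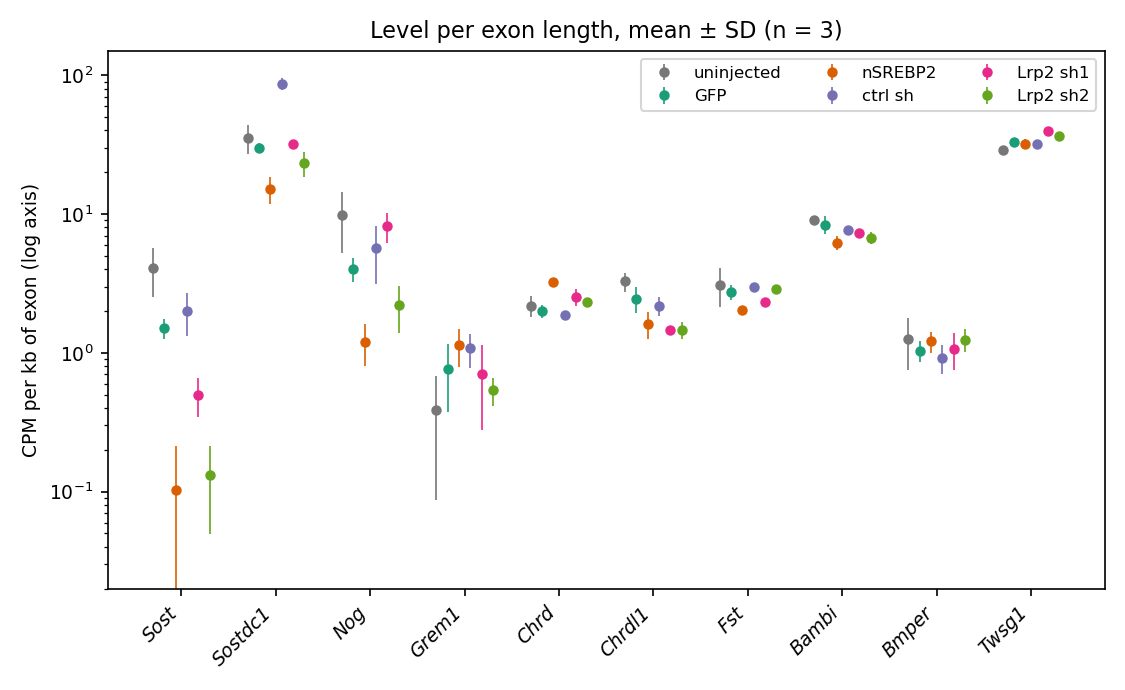
Levels of the 10 genes in CPM per kb of exon on a log axis, with a point for the mean of 3 libraries of each group and a bar for the SD (the lower bar of *Sost* in nSREBP2 runs off the axis because the SD exceeds the mean). *Sostdc1* spans 15.2 to 86.4 CPM per kb between groups and *Twsg1* only 28.7 to 39.5.

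*Sost* and *Chrd* were the members with the largest fall and the largest significant rise in nSREBP2, and the 250 bases before their RefSeq start sites (GRCm38.p6) are shown for that reason, in the direction of the gene. Capitals mark matches on either strand to any of 5 motifs: the SREBP E-box CACGTG, the SRE-like GTGGGG, the sterol element TCACNCCAC, the SMAD-type GGCGCC and the TATA box TATAAA. The *Sost* window is on the minus strand at chr11:101967016-101967265 and the *Chrd* window on the plus strand at chr16:20732877-20733126, each ending at the base before the gene.
*Sost*: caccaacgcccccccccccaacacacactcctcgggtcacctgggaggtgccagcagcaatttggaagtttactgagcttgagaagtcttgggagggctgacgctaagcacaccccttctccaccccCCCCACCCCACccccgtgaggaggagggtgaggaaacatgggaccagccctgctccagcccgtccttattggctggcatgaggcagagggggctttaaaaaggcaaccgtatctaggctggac
*Chrd*: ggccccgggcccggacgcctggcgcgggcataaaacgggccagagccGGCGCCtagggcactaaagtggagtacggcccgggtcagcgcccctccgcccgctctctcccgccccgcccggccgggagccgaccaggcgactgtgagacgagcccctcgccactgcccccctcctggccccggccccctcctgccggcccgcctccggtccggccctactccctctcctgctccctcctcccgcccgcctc
The *Sost* window held GTGGGG at 2 places, both on the opposite strand and sharing 1 base, which start 123 and 118 bases before the gene. The same letters occurred in 25.50% of 32851 mouse promoter windows of this length. The *Chrd* window held GGCGCC 203 bases before the gene, a motif found in 9.59% of windows. CACGTG (6.02% of windows), TCACNCCAC (1.05%) and TATAAA (12.37%) were in neither. Of the other members, *Grem1*, *Bmper* and *Twsg1* had a window in the same table, and among these only *Grem1* held a searched motif (GGCGCC).

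In nSREBP2 against GFP, 6 of the 10 members passed an edgeR adjusted *P* of 0.05, 5 lower and 1 higher, where 21% of 17927 tested genes did. The median log2FC of the members was -0.43, and that of all tested genes was -0.02. With the study's further requirement of an absolute log2FC above 1, *Sost* and *Nog* remained of the 10, where 6.67% of all genes met both. In *Lrp2* sh1 against ctrl sh 4 members passed, 3 lower and 1 higher, against 5.33% of 17801 genes, and *Sost* and *Sostdc1* also had an absolute log2FC above 1 (0.994% of genes). In *Lrp2* sh2 against ctrl sh 5 passed, all lower, against 18.1% of 18089 genes, and *Sost*, *Sostdc1* and *Nog* exceeded an absolute log2FC of 1 (4.76% of genes). The median log2FC of the members was -0.22 in *Lrp2* sh1 and -0.36 in *Lrp2* sh2, beside -0.01 and 0.01 for all genes. *Sost*, *Sostdc1* and *Chrdl1* were lower in all 3 comparisons, of which the hairpin comparisons share their ctrl sh libraries.

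**Figure D2:**
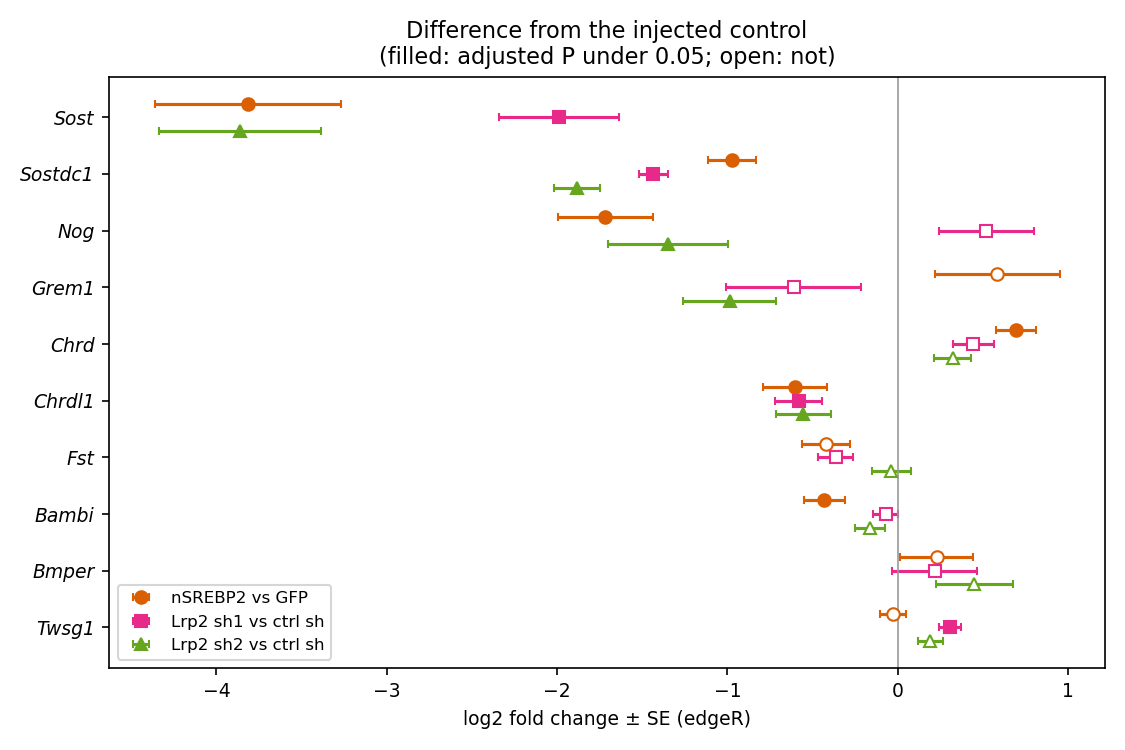
log2 fold change of each gene against its injected control, with the SE as the bar; circles are nSREBP2 against GFP, squares *Lrp2* sh1 against ctrl sh and triangles *Lrp2* sh2 against ctrl sh, filled where the edgeR adjusted *P* was under 0.05. *Sost* lies farthest to the left, at -3.81, -1.99 and -3.86, and *Chrd* lies to the right of 0 in all 3, filled in nSREBP2.

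*Sost* encodes sclerostin, a cystine-knot protein best known as the brake on bone formation made by osteocytes. It was at 11.7, 8.41 and 5.24 CPM in the uninjected libraries. It was at 3.16, 2.56 and 3.61 CPM in GFP and at 0.186, 0 and 0.454 CPM in nSREBP2. It was at 2.52, 4.84 and 5.14 CPM in ctrl sh, at 1.11, 1.32 and 0.679 CPM in *Lrp2* sh1 and at 0.319, 0.0841 and 0.416 CPM in *Lrp2* sh2. Each manipulated group lay wholly below its injected control, and each injected group lay wholly below the uninjected libraries. The deposited counts behind the lowest values were 2, 0 and 5 reads in nSREBP2 and 4, 1 and 5 in *Lrp2* sh2, at or close to the 3 counts that a count of 0 allows. Summed over the 3 libraries and scaled for depth, GFP held 14.9 times the *Sost* reads of nSREBP2 (exact 95% interval 6.999 to 37.9, 114 against 7 reads). The same ratio was 14.9 for ctrl sh over *Lrp2* sh2 (7.91 to 31.8, 158 against 10 reads) and 3.94 for ctrl sh over *Lrp2* sh1 (2.75 to 5.77, 158 against 38 reads). These intervals cover counting error only.

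Tested over libraries, the log2FC of *Sost* was -3.81 ± 0.55 (SE) in nSREBP2 (edgeR adjusted *P*=0.00107), -1.99 ± 0.35 in *Lrp2* sh1 (0.0126) and -3.86 ± 0.47 in *Lrp2* sh2 (7.40e-04). With 1 library left out at a time, the call in *Lrp2* sh1 was lost without *Lrp2* sh1 replicate 1 (adjusted *P*=0.0540) or 3 (0.0624). *Sost* was also the member that differed with injection of the GFP vector: 1 of the 10 was significant in GFP against uninjected RPE, where 2.48% of 17837 genes were, with *Sost* at a log2FC of -1.45 ± 0.30 (adjusted *P*=0.0452). That call was lost in 5 of the 6 fits with 1 library left out, where the adjusted *P* reached 0.186. In ctrl sh against uninjected the log2FC was -1.04 ± 0.34 (adjusted *P*=0.102), although the libraries did not overlap. The summed RPE markers were at 2597 to 7763 CPM in uninjected RPE, 195 to 324 CPM in GFP (8 of 9 markers fell) and 1493 to 3617 CPM in ctrl sh (0 of 9 passed the test), and their part in the level of *Sost* was not tested. Within the uninjected group *Sost* was highest in the library with the lowest RPE marker sum. In nSREBP2 that sum was 231 to 338 CPM, overlapping GFP, while *Sost* was lower, but 4 of the 9 markers differed from GFP: *Ttr* and *Best1* were higher, and *Lrat* and *Rdh5* lower. The *Sost* differences of nSREBP2 and of the hairpins were -0.89 ± 0.76 apart on the log2 scale (adjusted *P*=0.551). Between the hairpins, *Sost* was filtered out as too low for the test, and the reads of *Lrp2* sh1 were 3.79 times those of *Lrp2* sh2 (exact 95% interval 1.85 to 8.53).

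**Figure D3:**
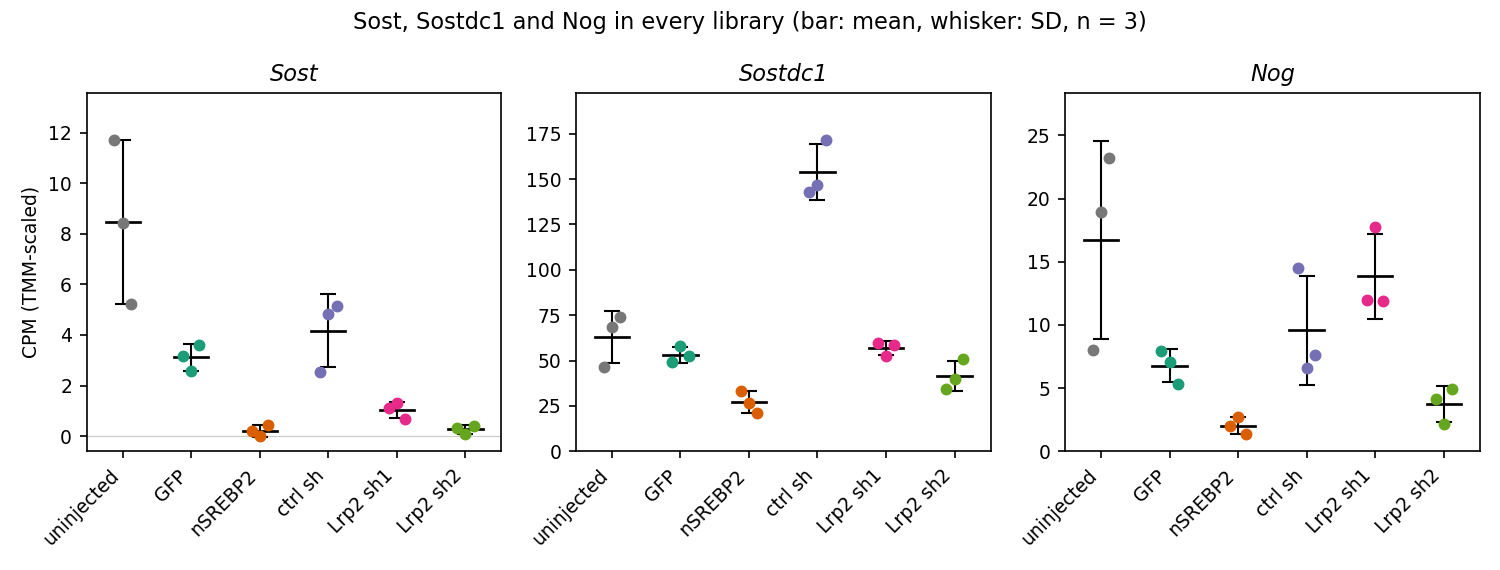
CPM of *Sost*, *Sostdc1* and *Nog* in every library, by group, with the mean as a bar and the SD as a whisker (n=3). *Sost* is below 0.5 CPM in all nSREBP2 and *Lrp2* sh2 libraries, *Sostdc1* stands above 140 CPM in ctrl sh and nowhere else above 75, and *Nog* is lowest on average in nSREBP2.

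*Sostdc1* encodes ectodin, also called USAG-1 or Wise, which limits tooth number in mice and antagonizes both BMPs and Wnts. It was at 46.6, 68.4 and 74.1 CPM in uninjected RPE. It was at 49.4, 57.9 and 52.4 CPM in GFP and at 33.2, 26.7 and 21.1 CPM in nSREBP2. It was at 143, 147 and 172 CPM in ctrl sh, at 59.6, 52.6 and 58.7 CPM in *Lrp2* sh1 and at 34.1, 39.8 and 50.7 CPM in *Lrp2* sh2. The ctrl sh libraries stood above those of every other group, and the nSREBP2 libraries below those of every other group. The log2FC was -0.97 ± 0.14 in nSREBP2 (edgeR adjusted *P*=0.00115), -1.44 ± 0.08 in *Lrp2* sh1 (6.12e-05) and -1.88 ± 0.14 in *Lrp2* sh2 (6.15e-05).

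The size of the *Sostdc1* difference in the hairpin groups depended on the control. *Sostdc1* was the 1 member significant in ctrl sh against uninjected RPE (log2FC 1.28 ± 0.16, adjusted *P*=0.00638), where 6.49% of 17822 genes were. It was also the 1 member significant in ctrl sh against GFP (1.53 ± 0.09, adjusted *P*=1.25e-04), a comparison added after the values were seen, in which 2.68% of 18018 genes were significant. Against uninjected RPE in place of ctrl sh, the log2FC was -0.15 in *Lrp2* sh1 (adjusted *P*=0.496) and -0.60 in *Lrp2* sh2 (0.0528), while in nSREBP2 it was -1.23 (0.00218). *Sostdc1* was in turn the 1 member whose nSREBP2 difference (against GFP) was distinguishable from the mean hairpin difference (against ctrl sh), by 0.69 ± 0.19 on the log2 scale (adjusted *P*=0.0399, with 7.85% of 19367 genes significant in that test), the fall being smaller in nSREBP2. The call was lost in 11 of 15 fits with 1 library left out (adjusted *P* up to 0.135), with a replicate block (0.0533) and with sex in the model (0.43 on the log2 scale, 0.321). That test compares falls from controls that themselves differ, and the sign of the gap between the groups is the opposite when both are set against uninjected RPE.

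The *Sostdc1* pattern over the 6 groups was most like that of *Plk5*, *Ccbe1* and *Hspb6* among 14919 genes with a mean log2 CPM of at least 1, by root mean square distance of centred log2 group means (0.21, 0.27 and 0.28). *Plk5*, of the polo-like kinase family, averaged 26.9 CPM in ctrl sh, 11.4 in uninjected and 4.28 in nSREBP2. This likeness is over 6 group means and is a description.

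*Nog* encodes noggin, which covers the receptor-binding faces of BMPs and is a classic dorsalizing factor of the early embryo. It was at 8.06, 18.95 and 23.3 CPM in uninjected RPE. It was at 7.95, 7.07 and 5.35 CPM in GFP and at 2.05, 2.71 and 1.36 CPM in nSREBP2. It was at 14.5, 6.63 and 7.59 CPM in ctrl sh, at 11.9, 17.8 and 11.9 CPM in *Lrp2* sh1 and at 4.14, 2.19 and 4.91 CPM in *Lrp2* sh2. nSREBP2 lay below GFP and *Lrp2* sh2 below ctrl sh without overlap, while *Lrp2* sh1 overlapped ctrl sh on the high side. The log2FC was -1.72 ± 0.28 in nSREBP2 (edgeR adjusted *P*=0.00209) and -1.35 ± 0.35 in *Lrp2* sh2 (0.0272). In *Lrp2* sh1 it was 0.52 ± 0.28 (adjusted *P*=0.345). Of the control groups, GFP lay below uninjected RPE without overlap, at a log2FC of -1.32 ± 0.34 (edgeR adjusted *P*=0.0856). This difference passed the threshold in DESeq2, without the filter on low counts and in the fit of all libraries. It did not pass with sex in that fit (-1.15, 0.0867), with a replicate block (-1.24, 0.141) or with the other scaling (0.0857) or the stricter filter (0.0863). With 1 library left out its adjusted *P* ran from 0.00156 (without uninjected replicate 1) to 0.240. The *Nog* difference of nSREBP2 and the mean difference of the hairpins were -1.30 ± 0.46 apart (edgeR adjusted *P*=0.0992). That mean joins hairpins of opposite sign, 0.52 and -1.35, and so describes neither. The test also stayed above the threshold in 14 of 15 fits with 1 library left out (adjusted *P* up to 0.221) and with sex as a term (-1.56, 0.159). It passed without ctrl sh replicate 1 (-1.74, 0.0159) and without the filter on low counts (-1.31, 0.0108).

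The 2 hairpins differed in *Nog*: the test between them gave a log2FC of -1.87 ± 0.27 for *Lrp2* sh2 against *Lrp2* sh1 (adjusted *P*=9.37e-04). In that comparison 2 of 9 tested members were significant, *Nog* and *Sostdc1* (-0.45 ± 0.13, adjusted *P*=0.0278), where 22.4% of 17975 genes were. *Nog* kept its call with any 1 library left out, while *Sostdc1* lost it without *Lrp2* sh1 replicate 1 or 3 or *Lrp2* sh2 replicate 1 or 2 (log2FC -0.43 to -0.33, adjusted *P* of 0.0708 to 0.0939) and in the fit of all 18 libraries (-0.46, 0.0687). The sh1 mice were all female and 2 of the sh2 mice male. With sex as a term in that fit, both genes passed, at -2.12 for *Nog* (edgeR adjusted *P*=0.00469) and -0.725 for *Sostdc1* (0.0143). *Lrp2* itself differed little between the hairpins (36.9 ± 6.62 CPM in sh1 and 38.6 ± 4.58 in sh2, SD, n=3). The 9 RPE markers fell by a median log2FC of 1.67 from sh1 to sh2, 6 of them significantly, and 10 of 11 rod photoreceptor markers rose, by a median of 3.12. The rod sums were uneven within sh2, at 441, 87.7 and 117 CPM, against 34.6, 38.2 and 67.9 CPM in sh1.

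The level of *Nog* varied with that of the RPE markers over the libraries, a pattern picked out after the values were seen. In 5 of the 6 groups, nSREBP2 being the exception, the library highest in *Nog* was also the highest in the summed RPE markers, which was so in at least 5 groups for 2.65% of all tested genes and for no other member. The uninjected library at 8.06 CPM of *Nog* had 2597 CPM of RPE markers, against 7121 and 7763 CPM in the other two. In ctrl sh, the library at 14.5 CPM of *Nog* had 3617 CPM, against 1493 and 1640 CPM. In *Lrp2* sh2 the marker sum was 287 to 592 CPM, with 4 of 9 markers lower than in ctrl sh, and its part in the *Nog* difference was not tested. In nSREBP2 against GFP, *Nog* was lower while the marker sums overlapped, at 231 to 338 CPM and 195 to 324 CPM. The sum was uneven in its parts, with *Ttr* (log2FC 0.84) and *Best1* (1.75) higher in nSREBP2 and *Lrat* (-1.47) and *Rdh5* (-1.10) lower. In *Lrp2* sh2 the *Nog* call was lost without ctrl sh replicate 1 (log2FC -0.92, adjusted *P*=0.0750), the library highest in both, and also without *Lrp2* sh2 replicate 1 (0.0618) or 2 (0.0914). Without ctrl sh replicate 1, *Nog* in *Lrp2* sh1 was higher than in ctrl sh, with a log2FC of 0.96 (adjusted *P*=0.0158).

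**Figure D4:**
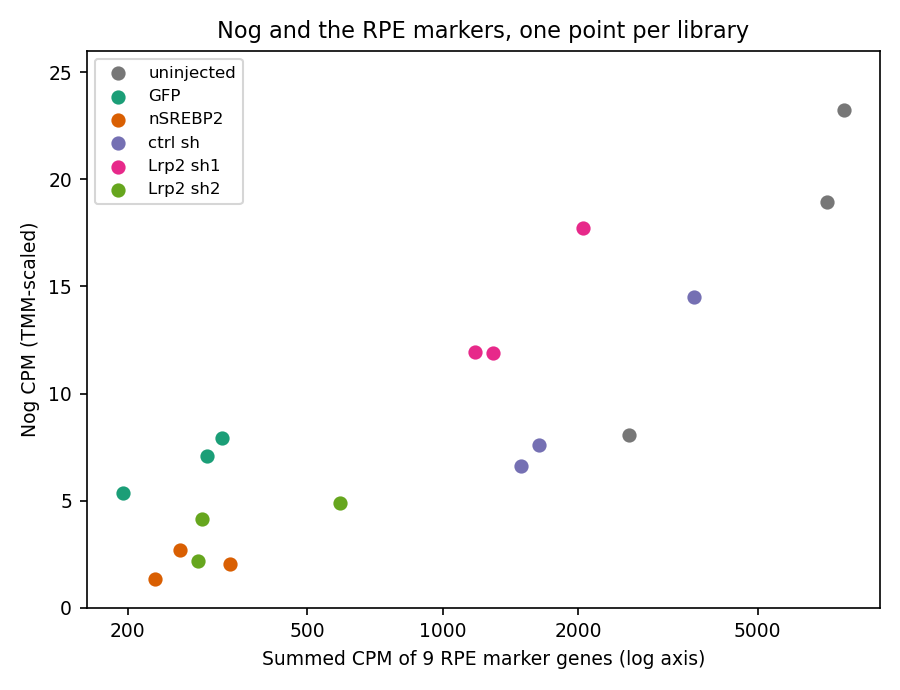
*Nog* in CPM against the summed CPM of 9 RPE marker genes on a log axis, with a point for each of the 18 libraries coloured by group. The GFP, nSREBP2 and *Lrp2* sh2 libraries lie between 195 and 592 CPM of markers, and at those sums *Nog* is at 5.35 to 7.95 CPM in GFP, 1.36 to 2.71 CPM in nSREBP2 and 2.19 to 4.91 CPM in *Lrp2* sh2.

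*Chrd* encodes chordin, whose cysteine-rich repeats bind BMPs and which is released from them by tolloid proteases. It was at 11.3, 16.1 and 13.6 CPM in uninjected RPE. It was at 11.03, 12.8 and 13.6 CPM in GFP and at 21.4, 20.3 and 18.7 CPM in nSREBP2. It was at 11.1, 12.2 and 11.7 CPM in ctrl sh, at 13.9, 15.4 and 18.3 CPM in *Lrp2* sh1 and at 14.5, 14.5 and 14.4 CPM in *Lrp2* sh2. nSREBP2 lay above every other library of the series, and both *Lrp2* hairpin groups lay above ctrl sh without overlap. The rise was significant in nSREBP2 (log2FC 0.69 ± 0.12, edgeR adjusted *P*=0.00260), and the values were 0.44 ± 0.12 in *Lrp2* sh1 (0.0708) and 0.32 ± 0.11 in *Lrp2* sh2 (0.0682). Over 6258 exon bases, 239 of *Chrd* are overlapped by *Thpo* on the opposite strand, so reads there are uncertain in origin.

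Beside the rise of *Chrd* in nSREBP2, all 6 fibroblast markers rose, and their sum was 71237 to 85271 CPM against 34499 to 43774 CPM in GFP. All 6 macrophage markers rose as well, to 433 to 465 CPM from 241 to 285 CPM. The part of either in *Chrd* was not tested. Against ctrl sh, 0 of 6 fibroblast markers were significant in *Lrp2* sh1 and 2 were, both higher, in *Lrp2* sh2.

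*Chrdl1* encodes chordin-like 1 (ventroptin), which antagonizes BMP4 in the developing retina and lies on the X chromosome. It was at 23.7, 24.6 and 18.1 CPM in uninjected RPE. It was at 14.5, 20.6 and 14.8 CPM in GFP and at 13.7, 9.46 and 9.53 CPM in nSREBP2. It was at 12.2, 15.2 and 16.8 CPM in ctrl sh, at 9.17, 9.83 and 10.5 CPM in *Lrp2* sh1 and at 11.4, 9.83 and 8.58 CPM in *Lrp2* sh2. All 3 manipulated groups lay below their injected control without overlap. The log2FC was nearly the same in all 3 comparisons, -0.60 ± 0.19 in nSREBP2 (edgeR adjusted *P*=0.0465), -0.58 ± 0.14 in *Lrp2* sh1 (0.0412) and -0.55 ± 0.16 in *Lrp2* sh2 (0.0401).

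Each of these *Chrdl1* calls was close to the threshold and was lost in at least 4 of 6 fits with 1 library left out. When sex was added to a model of the 18 libraries together, in which uninjected and *Lrp2* sh2 were the groups that held both sexes, the log2FC of *Chrdl1* was -0.25 in nSREBP2 (adjusted *P*=0.596) and -0.33 in *Lrp2* sh2 (0.339), while in *Lrp2* sh1, where all mice of both groups were female, it was -0.58 (0.0652). In ctrl sh against uninjected RPE the log2FC was -0.60 ± 0.16 (adjusted *P*=0.0601), and the libraries did not overlap. The hairpin values above are measured from ctrl sh, and the part of injection in the *Chrdl1* differences was not tested. Against uninjected RPE the 3 manipulated groups were about -1 or lower, at -1.03 in nSREBP2 (0.00330), -1.17 in *Lrp2* sh1 (8.15e-04) and -1.16 in *Lrp2* sh2 (0.00162).

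*Twsg1* encodes twisted gastrulation, which binds chordin and BMP and can act for or against signalling. It was at 147, 149 and 147 CPM in uninjected RPE. It was at 163, 176 and 167 CPM in GFP and at 174, 150 and 172 CPM in nSREBP2. It was at 153, 177 and 163 CPM in ctrl sh, at 209, 201 and 201 CPM in *Lrp2* sh1 and at 178, 191 and 192 CPM in *Lrp2* sh2. The *Lrp2* hairpin libraries were the highest of the series and the uninjected ones the lowest. *Twsg1* rose in *Lrp2* sh1 (log2FC 0.30 ± 0.06, edgeR adjusted *P*=0.0274), a call that was lost in 4 of 6 fits with 1 library left out. In *Lrp2* sh2 the log2FC was 0.19 ± 0.07 (adjusted *P*=0.0980) and in nSREBP2 it was -0.03 ± 0.07 (0.840).

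*Bmper* encodes crossveinless-2, another protein with chordin-type repeats. It ranged from 3.60 CPM in a ctrl sh library to 8.67 CPM in an uninjected one, and the libraries of all 6 groups overlapped. Its log2FC was 0.23 ± 0.21 in nSREBP2, 0.22 ± 0.25 in *Lrp2* sh1 and 0.45 ± 0.22 in *Lrp2* sh2, with adjusted *P* of 0.512, 0.698 and 0.204.

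*Grem1* encodes gremlin 1, a DAN-family antagonist of BMP2 and BMP4 that shapes limb and kidney growth. It was at 0.612, 2.997 and 1.20 CPM in uninjected RPE. It was at 2.56, 5.04 and 1.96 CPM in GFP and at 3.16, 4.99 and 5.99 CPM in nSREBP2. It was at 3.45, 4.14 and 5.82 CPM in ctrl sh, at 1.26, 4.79 and 2.71 CPM in *Lrp2* sh1 and at 1.67, 2.35 and 2.66 CPM in *Lrp2* sh2. Only the *Lrp2* sh2 and ctrl sh libraries were separate within the study's comparisons, and in every group the highest library was more than 1.5 times the lowest. *Grem1* was lower in *Lrp2* sh2 (log2FC -0.99 ± 0.27, edgeR adjusted *P*=0.0345). Against uninjected RPE the sign turned, to 0.46 (adjusted *P*=0.546), and the call was also lost without ctrl sh replicate 2 or 3 or *Lrp2* sh2 replicate 1 or 2 (log2FC -1.04 to -0.76, adjusted *P* of 0.0711 to 0.130) and in the fit of all 18 libraries, both without sex (-0.996, 0.164) and with it (-1.05, 0.351). The log2FC was 0.58 ± 0.37 in nSREBP2 (0.310) and -0.61 ± 0.39 in *Lrp2* sh1 (0.442). In ctrl sh, the control of the hairpins, *Grem1* stood above uninjected RPE without overlap, at a log2FC of 1.44 ± 0.47 (adjusted *P*=0.0983).

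*Fst* encodes follistatin, which neutralizes activins and, less tightly, BMPs. It was at 12.7, 10.9 and 14 CPM in GFP and at 9.49, 9.72 and 8.72 CPM in nSREBP2. It was at 13.4, 14.2 and 13.5 CPM in ctrl sh, at 10.04, 11.2 and 10.8 CPM in *Lrp2* sh1 and at 12.7, 14.4 and 12.7 CPM in *Lrp2* sh2. nSREBP2 and *Lrp2* sh1 lay below their controls without overlap, and the nSREBP2 libraries also lay below the uninjected ones, which spread over 10.2 to 18.97 CPM. None of the 3 differences passed the test, with a log2FC of -0.42 ± 0.14 in nSREBP2 (edgeR adjusted *P*=0.0588), -0.36 ± 0.10 in *Lrp2* sh1 (0.0752) and -0.04 ± 0.11 in *Lrp2* sh2 (0.861). Of its 4589 exon bases, 115 are overlapped by *Gm47040* on the opposite strand.

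*Bambi* was at 46.6, 42.0 and 49.0 CPM in uninjected RPE. It was at 36.9, 42.0 and 49.0 CPM in GFP and at 32.6, 27.4 and 34.7 CPM in nSREBP2. The nSREBP2 libraries lay below both, the highest of them close to the lowest GFP library. The log2FC was -0.43 ± 0.12 (edgeR adjusted *P*=0.0323), and the call was lost in 4 of 6 fits with 1 library left out. The ctrl sh, *Lrp2* sh1 and *Lrp2* sh2 libraries lay between 32.3 and 41.0 CPM. Against ctrl sh the log2FC was -0.07 ± 0.07 in *Lrp2* sh1 (0.668) and -0.16 ± 0.09 in *Lrp2* sh2 (0.239). Against uninjected RPE it was -0.315 in *Lrp2* sh1 (0.0345) and -0.416 in *Lrp2* sh2 (0.0213).

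**Figure D5:**
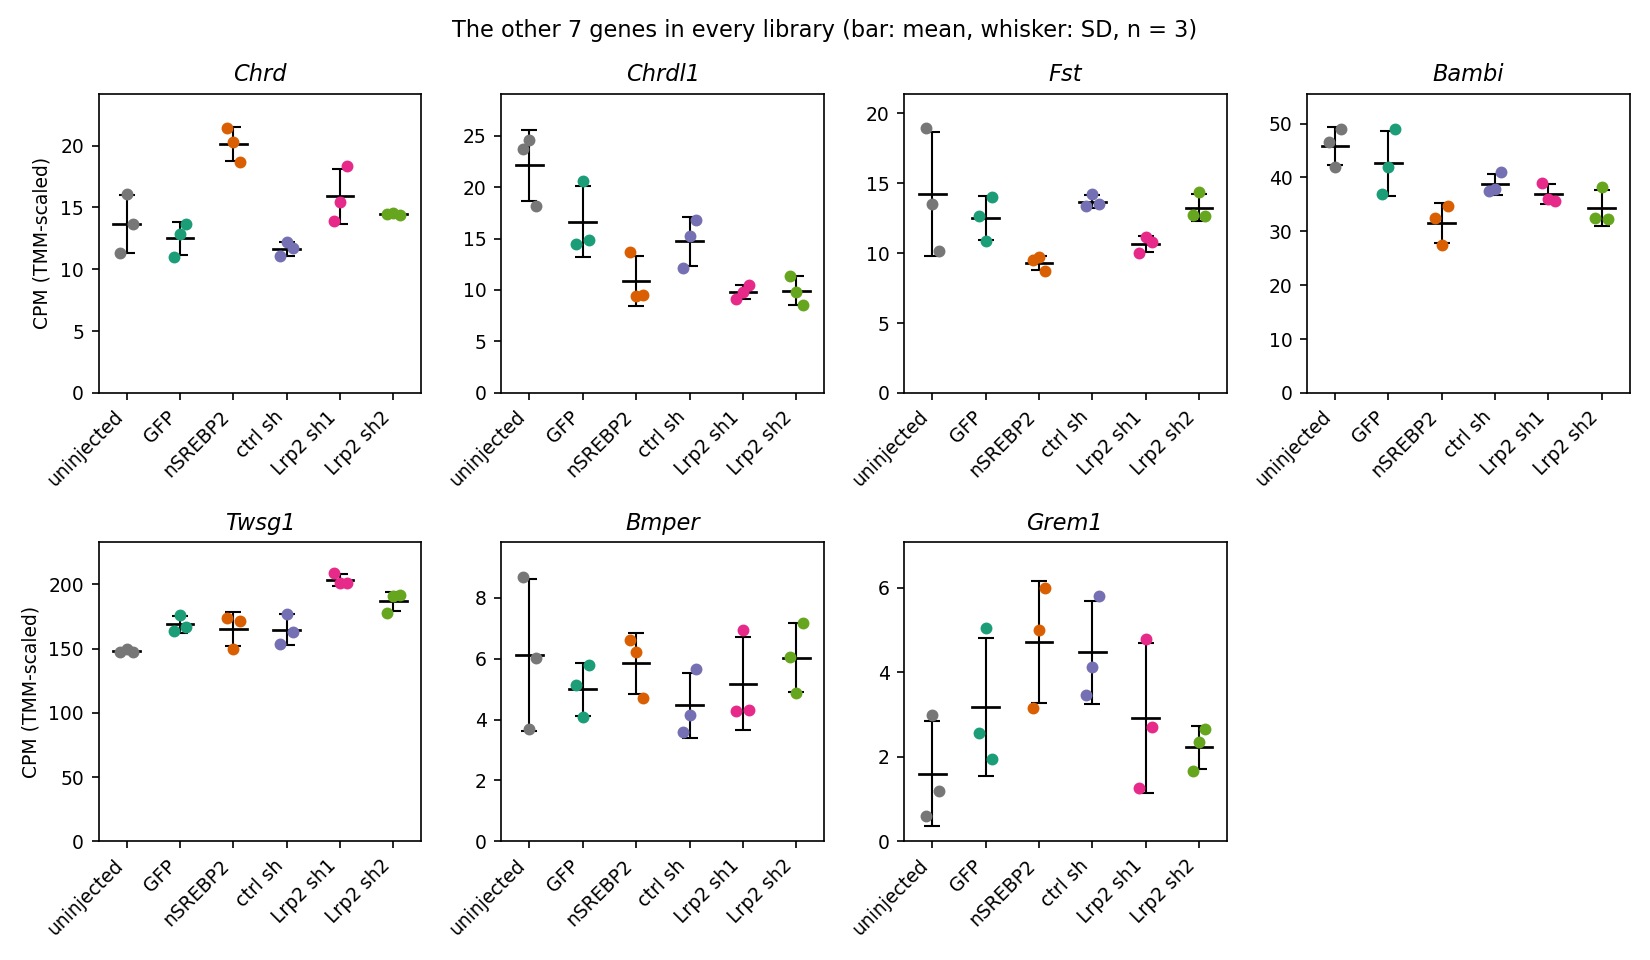
CPM of the other 7 genes in every library, by group, with the mean as a bar and the SD as a whisker (n=3), each panel on its own axis from 0. *Chrd* is highest in nSREBP2, *Twsg1* in *Lrp2* sh1 and *Chrdl1* in uninjected RPE, while the groups overlap for *Bmper*.

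The rest of the pathway was read from lists chosen with earlier results of these data known. Of 24 tested genes for other extracellular regulators, 12 rose and 4 fell in nSREBP2. The share over all genes was 21% in nSREBP2, 18.1% in *Lrp2* sh2 and 5.33% in *Lrp2* sh1, here and for the lists that follow. *Fstl5* had 0, 1 and 0 reads in GFP and 14, 16 and 14 in nSREBP2, too few in GFP for a fold, *Tll2* (log2FC 2.43), of the tolloid-like proteases, rose, and *Smoc1* (-1.14), a matrix protein that inhibits BMP signalling, was among those that fell. In *Lrp2* sh2, 7 of 22 rose and 4 fell, led by the rises of *Fstl3* (1.31), an activin-binding relative of *Fst*, and *Htra1* (1.06), and *Tmeff1* (0.91) rose as well. In *Lrp2* sh1 only *Smoc1* of 22 passed the test (-0.42). *Smoc1* thus fell in all 3 comparisons. The rise of this list in nSREBP2 came beside that of all 6 fibroblast markers (median log2FC 0.88) and all 6 macrophage markers (0.95), whose part in it was not tested. *Dcn* is a fibroblast marker and is also in this list, so these rises are in part the same values. The median log2FC of this list was 0.49 in nSREBP2, where the members' median was -0.43, and 0.08 and 0.05 in *Lrp2* sh1 and *Lrp2* sh2.

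Among the ligands that the members bind, *Bmp2* was lower in all 3 comparisons, by -1.10 ± 0.20 in nSREBP2 (edgeR adjusted *P*=0.00434), -0.36 ± 0.08 in *Lrp2* sh1 (0.0325) and -0.90 ± 0.10 in *Lrp2* sh2 (5.31e-04). Of 10 tested BMP-type ligand genes 2 rose and 4 fell in nSREBP2, with *Bmp3* (log2FC 1.52), *Bmp6* (-1.17) and *Gdf10* (-1.16) moving most. In *Lrp2* sh2, 5 of 9 fell, led by *Bmp6* (-1.19) and followed by *Bmp2*, *Gdf10* (-0.78) and *Gdf11* (-0.68). In *Lrp2* sh1 2 of 8 fell, *Gdf10* (-0.70) and *Bmp2*. Of 3 tested activin subunit genes, *Inhba* rose in nSREBP2 (2.15) and *Inhbb* in *Lrp2* sh2 (0.70), and none passed in *Lrp2* sh1.

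Of 8 tested receptor genes, 3 fell in nSREBP2: *Bmpr1b* (log2FC -0.92), the endothelial receptor gene *Acvrl1* (-0.37) and *Bmpr2* (-0.29). *Acvrl1* fell in *Lrp2* sh1 (-0.31) and *Lrp2* sh2 (-0.62) as well, where *Bmpr1a* (0.24) and *Acvr1b* (0.33) rose, respectively. Endothelial markers were lower in 4 of 6 genes in nSREBP2 and in 5 of 6 in *Lrp2* sh2, and in 0 of 6 in *Lrp2* sh1, and their part in the fall of *Acvrl1* was not tested. Of 3 LRP receptor genes whose products sclerostin and SOSTDC1 bind, *Lrp6* fell in nSREBP2 (-0.24), and none passed in either hairpin. All 7 BMP target genes, which the study chose on these samples and which are therefore no independent evidence of direction, fell in nSREBP2, led by *Smad9* (-1.49), *Smad6* (-1.23), *Id1* (-1.12) and *Id2* (-0.77). In *Lrp2* sh1 *Smad6* (-0.55) and *Smad9* (-0.40) fell, and in *Lrp2* sh2 5 did, led by *Id4* (-0.89) and *Id1* (-0.67).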

How the data were processed

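RNA-seq libraries of dissociated mouse RPE were sequenced and mapped to GRCm38 with STAR 2.7.3a by the authors, who deposited raw counts per gene. Which annotation they counted on, and whether strand was used, is not given in the sources used here. The labels gave the groups and replicate numbers and name ctrl sh by its target, LacZ.

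For every comparison, a quasi-likelihood model was fitted to the raw counts of the groups compared (edgeR 4.0.16, R 4.3.3, with filterByExpr and TMM). Benjamini-Hochberg adjustment ran over all genes tested, and the threshold was 0.05. The SE is the size of the log2FC divided by the square root of F. Levels are CPM with TMM factors over 18 libraries. Exon lengths and overlaps came from GENCODE M21, and upstream sequences from RefSeq, which held 5 of the 10 members. The fits were tested on simulated data.

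The text names all 10 members, *Lrp2*, *Srebf2* and *Bmp2*, at most the 4 significant genes with the largest absolute log2FC of each pathway list in each comparison of the study, and the 3 genes whose pattern was most like that of the member with the smallest *P* over the 6 groups. A result that this rule would name is not reported here. The members and lists were chosen with earlier results of these data known. DESeq2 1.42.0, other scaling and filters, a replicate block, fits of all libraries with and without sex, uninjected RPE as control and each library left out were tried as alternatives.

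No replicates were so alike as to be 1 library (lowest chi-square per degree of freedom 3.57). The labels do not say that libraries came from separate litters, and *P*-values measure the spread between these mice. The floor of detection was taken as 3 counts, which is 0.219 to 0.336 CPM in these libraries.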

Additional observations from a re-analysis of the deposited data

Results flagged for a closer look

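*Nog* and *Sostdc1* differed between the 2 *Lrp2* hairpins, which share their ctrl sh libraries and lowered *Lrp2* to overlapping levels. Their log2FC in *Lrp2* sh2 against *Lrp2* sh1 was -1.87 for *Nog* and -0.45 for *Sostdc1*, by a direct test of the difference. In that test 2 of 9 tested members were significant, beside 22.4% of 17975 genes, so the members' share was close to that of all genes. The *Nog* call was kept with any 1 library left out, and the *Sostdc1* call was lost in 4 of 6 such fits and in the fit of all 18 libraries (adjusted *P*=0.0687). Sex was uneven here, as all *Lrp2* sh1 mice were female and 2 *Lrp2* sh2 mice were male. With sex as a term in the fit of all 18 libraries the log2FC was -2.12 for *Nog* (edgeR adjusted *P*=0.00469) and -0.725 for *Sostdc1* (0.0143). The summed RPE markers also differed between these groups, at 1181 to 2044 CPM in *Lrp2* sh1 and 287 to 592 CPM in *Lrp2* sh2, and their part in the *Nog* and *Sostdc1* differences was not tested.

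The difference of *Sostdc1* from its control differed between nSREBP2 and the *Lrp2* hairpins, by 0.69 on the log2 scale (edgeR adjusted *P*=0.0399). It was 1 of 10 members significant in that test, beside 7.85% of 19367 genes. This call was lost in 11 of 15 fits with 1 library left out, with a replicate block (0.0533) and with sex in the model (0.43, adjusted *P*=0.321). The control of the hairpins was itself high in *Sostdc1*, at 154 ± 15.6 CPM (SD, n=3) against 53.2 ± 4.32 CPM in GFP.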

How the results depend on the processing

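*Sost*, *Sostdc1*, *Nog* and *Chrd* kept their direction and significance in nSREBP2 against GFP under every alternative that gave a value (*Sost* is not tested where at least 10 counts in every library are required), with the log2FC of *Sost* between -4.95 and -3.23 when 1 library was left out. Outside that range, the log2FC of *Sost* was -2.99 with sex as a term (edgeR adjusted *P*=0.0166) and -5.26 against uninjected RPE (3.85e-04). The counts of significant members changed more. With 1 library left out they ran from 4 to 5 in nSREBP2 against GFP, 1 to 5 in *Lrp2* sh1 against ctrl sh, 2 to 4 in *Lrp2* sh2 against ctrl sh, 0 to 2 in GFP against uninjected, 1 to 2 in ctrl sh against uninjected, 1 to 3 between the hairpins, 7 to 9 over the 6 groups, and 0 to 2 for the nSREBP2 difference against that of the hairpins. All genes significant then ran from 2626 to 3705 between the hairpins (4029 with all libraries) and 8873 to 9624 over the 6 groups (9625). For the nSREBP2 difference against the hairpins they ran from 920 to 1786 (1520 with all). With an absolute log2FC above 1 required as well the members significant were 2, 2 and 3 in the comparisons of the study. Between the hairpins 1 member met both, where 922 of 17975 genes did. With sex as a term the members significant were 3 in *Lrp2* sh2, 3 in ctrl sh against uninjected and 0 for the nSREBP2 difference against the hairpins. With no filter on low counts they were 2 in GFP against uninjected, 4 in ctrl sh against uninjected and 3 for that last difference. DESeq2 gave 2 in GFP and 4 in ctrl sh against uninjected, and the fit of all 18 libraries gave 2 in both. The number of all genes significant moved in the same settings. In GFP against uninjected it went from 442 to 842 (DESeq2), 1093 (no filter) and 1722 (all 18 libraries). In ctrl sh against uninjected it went from 1157 to 1412, 1736 and 2870, and to 2456 with sex. For the nSREBP2 difference against the hairpins it went from 1520 to 1691 with no filter and 994 with sex. In *Lrp2* sh2 it went from 3268 to 2513 with sex.

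Replicate number was not a block in the main fits. Same-numbered libraries did not deviate together in the comparisons of the study, where all correlations were negative. Over all comparisons the correlations ran from -0.385 to 0.370. Differently numbered libraries were not correlated as a reference, so this check cannot decide whether replicate numbers paired the libraries. With a replicate block the members significant were 5 in nSREBP2, 2 in *Lrp2* sh1, 0 in GFP against uninjected and 0 for the nSREBP2 difference against the hairpins. The counts of all genes significant were then 3229, 492, 380 and 1392, in the same order.

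No reversed value was significant. Against uninjected RPE the sign turned for *Bmper* (-0.070) and *Twsg1* (0.15) in nSREBP2, for *Nog* (-0.27), *Grem1* (0.84) and *Bmper* (-0.24) in *Lrp2* sh1, and for *Grem1* (0.46) and *Bmper* (-0.018) in *Lrp2* sh2. With 1 library left out, *Twsg1* in nSREBP2 ran from -0.062 to 0.040 (above 0 without GFP or nSREBP2 replicate 2) and *Bmper* in *Lrp2* sh1 from -0.049 (without *Lrp2* sh1 replicate 2) to 0.42. *Fst* in *Lrp2* sh2 turned to 0.15 with sex as a term. Calls were gained against uninjected RPE for *Bambi* in both hairpins and for *Twsg1* in *Lrp2* sh2 (log2FC 0.34, edgeR adjusted *P*=0.0106). *Grem1* in nSREBP2 gained one as well (1.53, 0.0466). The number of all genes significant in nSREBP2 was 3770, and 2178 with sex as a term, and in *Lrp2* sh1 it was 949, and 492 with the replicate block, 1441 with no filter and 4354 against uninjected RPE. With 1 library left out these counts of all genes ran from 2481 to 4097 in nSREBP2, 364 (without *Lrp2* sh1 replicate 3) to 1298 (without ctrl sh replicate 1) in *Lrp2* sh1, 2019 to 2727 in *Lrp2* sh2 (3268 with all), 66 (without GFP replicate 2) to 740 (without uninjected replicate 1) in GFP against uninjected (442 with all), and 140 (without ctrl sh replicate 2) to 998 (without uninjected replicate 2) in ctrl sh against uninjected (1157 with all), so the shares of genes printed beside the members' counts move with single libraries. The cause of these changes was not tested.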
